A study of Homo sapiens with 16 samples.

Results

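The adrenergic core transcription factors described here are the rows of the count table for PHOX2A, HAND2, GATA3, GATA2, ISL1, TBX2, TFAP2B and INSM2, which are 8 of 25728 symbols. They were chosen by name, as factors of the sympathoadrenal lineage, with earlier results of these data known. All 8 passed the filter on low counts that kept 11863 genes. RNA was sequenced from Kelly and LAN-1, established human neuroblastoma cell lines. Cells of each line received 2 uM GSK126, a small molecule that blocks the histone methyltransferase EZH2, or DMSO, the solvent control, for 2 or 5 days. The 2 lines, 2 agents and 2 times gave 8 groups of 2 libraries, 16 in all. The labels name no genetic change made in the cells, and the 2 lines are the only models, so a difference between them is a difference between 2 cultured lines.

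Neuroblastoma arises from the sympathoadrenal branch of the neural crest. In its adrenergic state a small set of transcription factors binds the enhancers of its own genes and of each other, which is called a core regulatory circuit. The circuit keeps on the genes of noradrenaline synthesis and storage, and a contrasting mesenchymal state uses other factors. EZH2 places the repressive mark H3K27me3 as part of the Polycomb complex PRC2, and many developmental regulators are its targets in other tissues.

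The members belong to several DNA-binding families. PHOX2A is a paired-type homeodomain protein that activates noradrenergic genes, and ISL1 is a LIM-homeodomain protein of sympathetic and other neurons. HAND2 is a basic helix-loop-helix factor, a class that binds E-boxes. GATA2 and GATA3 are zinc-finger factors that bind GATA motifs and act in sympathetic neurons as well as in blood cells. TBX2 is a T-box factor known mainly as a repressor. TFAP2B belongs to the AP-2 family of neural crest regulators, and INSM2 is a zinc-finger protein related to the neuroendocrine repressor INSM1.

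On GRCh37, the build in the submitters' processing notes, PHOX2A lies at chr11:71950121-71956708 on the minus strand. HAND2 lies at chr4:174446120-174451380 and GATA2 at chr3:128198270-128212044, both on the minus strand. GATA3 lies at chr10:8087341-8117161, ISL1 at chr5:50679282-50690564, TBX2 at chr17:59477204-59486827, TFAP2B at chr6:50786436-50815332 and INSM2 at chr14:36003370-36006260, all on the plus strand. All are protein-coding, and reads over their exons were counted together, so the counts do not separate isoforms.

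The sequences below are the 250 bases upstream of the RefSeq start (GRCh38.p14) of the 3 members whose RNA fell together in Kelly at day 5, HAND2, TFAP2B and INSM2, and of ISL1, which did not pass the test there. Each is printed 5′ to 3′ on the strand of its gene. Capitals mark matches on either strand. The GATA motif was searched as AGATAA and, in its other form, as TGATAA. The E-box was searched as CANNTG and the homeodomain motif as TAATTA. The AP-2 motif was searched as GCCNNNGGC and the T-box motif as AGGTGT.
HAND2 (chr4:173530230-173530479, minus strand): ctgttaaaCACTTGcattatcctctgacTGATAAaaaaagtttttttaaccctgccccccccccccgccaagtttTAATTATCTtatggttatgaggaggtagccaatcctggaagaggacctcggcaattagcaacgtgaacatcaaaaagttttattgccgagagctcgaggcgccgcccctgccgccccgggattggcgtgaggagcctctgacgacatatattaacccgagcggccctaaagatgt
TFAP2B (chr6:50818621-50818870, plus strand): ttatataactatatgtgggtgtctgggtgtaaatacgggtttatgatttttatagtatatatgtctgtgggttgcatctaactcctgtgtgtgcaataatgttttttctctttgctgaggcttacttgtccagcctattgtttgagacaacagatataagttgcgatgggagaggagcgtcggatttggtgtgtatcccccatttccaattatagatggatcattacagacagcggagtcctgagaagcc
INSM2 (chr14:35533914-35534163, plus strand): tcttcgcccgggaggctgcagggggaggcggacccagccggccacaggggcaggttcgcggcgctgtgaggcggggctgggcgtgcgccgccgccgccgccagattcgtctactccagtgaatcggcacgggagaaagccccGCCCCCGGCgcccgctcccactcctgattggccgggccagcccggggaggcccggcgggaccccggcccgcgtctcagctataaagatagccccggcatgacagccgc
ISL1 (chr5:51383198-51383447, plus strand): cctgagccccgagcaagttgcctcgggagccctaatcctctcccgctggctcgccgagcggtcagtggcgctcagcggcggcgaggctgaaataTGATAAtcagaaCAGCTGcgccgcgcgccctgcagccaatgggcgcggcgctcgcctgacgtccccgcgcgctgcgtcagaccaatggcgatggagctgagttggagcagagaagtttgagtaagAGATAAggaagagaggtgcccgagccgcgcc

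The HAND2 window held 2 GATA matches, 1 E-box and 1 TAATTA that overlaps the second GATA match. The ISL1 window held 2 GATA matches and 1 E-box, the INSM2 window 1 AP-2 match, and the TFAP2B window none of the 5 motifs. Windows with these letters were common: of 34943 RefSeq starts, 14.6% held a GATA match, 61.8% an E-box, 4.35% TAATTA, 19.7% an AP-2 match and 9.57% a T-box match. A match is a run of letters and was not measured as bound. The windows of the 3 members that fell did not share 1 composition: INSM2 held 30 CpG dinucleotides, HAND2 13 and TFAP2B 5, against 27 in ISL1 and a median of 11 over all starts. RefSeq windows were found for 7 of the 8 members.

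Library totals ran from 912095 to 1666190 counts, and the first principal component held 81.95% of the variance. The variance within duplicates was 1.118 to 1.337 times that of counting alone in 6 groups. It was 1.982 times in Kelly with DMSO at day 2 and 2.274 times in LAN-1 with GSK126 at day 5. In these groups the log ratio of the duplicates also followed the GC content of genes, with correlations across 8108 genes of -0.414 and -0.445. The correlation was 0.299 in LAN-1 with DMSO at day 2 and 0.258 in Kelly with GSK126 at day 5. It lay between -0.186 and 0.117 in the remaining groups. For member values resting on the 2 groups with the strongest correlations, a GC-corrected fit or a fit without 1 library is given below where it changes a call. The labels do not say whether duplicates were separate cultures, so p-values measure the spread between these libraries. All values below come from edgeR. Levels are CPM, counts scaled to the TMM-adjusted library total, given as mean ± SD (n = 2 libraries), and changes are log2 ± SE. A gene was called at an adjusted p under 0.05 over all 11863 genes.

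The lineage of the cells was checked on marker genes. The summed level of 8 sympathoadrenal markers was 3855 to 5296 CPM in Kelly and 542 to 707 CPM in LAN-1. Blood markers bear on GATA2 and GATA3: their summed level stayed at or under 6.05 CPM in Kelly and 9.23 CPM in LAN-1, most of it from CD68. CD3E and HBB had no read in either line. Fibroblast and mesenchymal markers summed to 134 to 475 CPM in Kelly and 383 to 586 CPM in LAN-1. The LAN-1 range overlapped that of the sympathoadrenal markers. However, most of this fibroblast and mesenchymal sum in LAN-1 came from VIM. The largest parts of the sympathoadrenal sum there came from CHGA and ELAVL4. The overlap thus rests largely on these genes and does not compare the marker lists gene by gene. Endothelial markers summed to at most 5.36 CPM in Kelly and 1.27 CPM in LAN-1. Of the defining noradrenergic markers, DBH had 1.18 ± 0.693 CPM and TH 0.693 ± 0.980 CPM in LAN-1 with DMSO at day 5, against 820 ± 4.09 and 274 ± 24.3 CPM in Kelly.

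All 8 factors were expressed in Kelly, whereas 6 of the 8 were expressed in LAN-1 above 50 CPM in every library. The exceptions were TFAP2B and INSM2. TFAP2B had 258 and 267 CPM in the Kelly DMSO libraries of day 2, and 326 and 331 CPM in those of day 5. In the LAN-1 DMSO libraries it had 0 and 0 CPM at day 2 and 0.693 and 0.836 CPM at day 5. Over the DMSO libraries this was 1710 counts in Kelly against 2 in LAN-1, a ratio of 847 with a 95% counting interval of 234 to 6999. INSM2 had 2053 counts in Kelly and 16 in LAN-1, a ratio of 127 (78.1 to 223). The intervals cover counting error only.

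**Figure D1:**
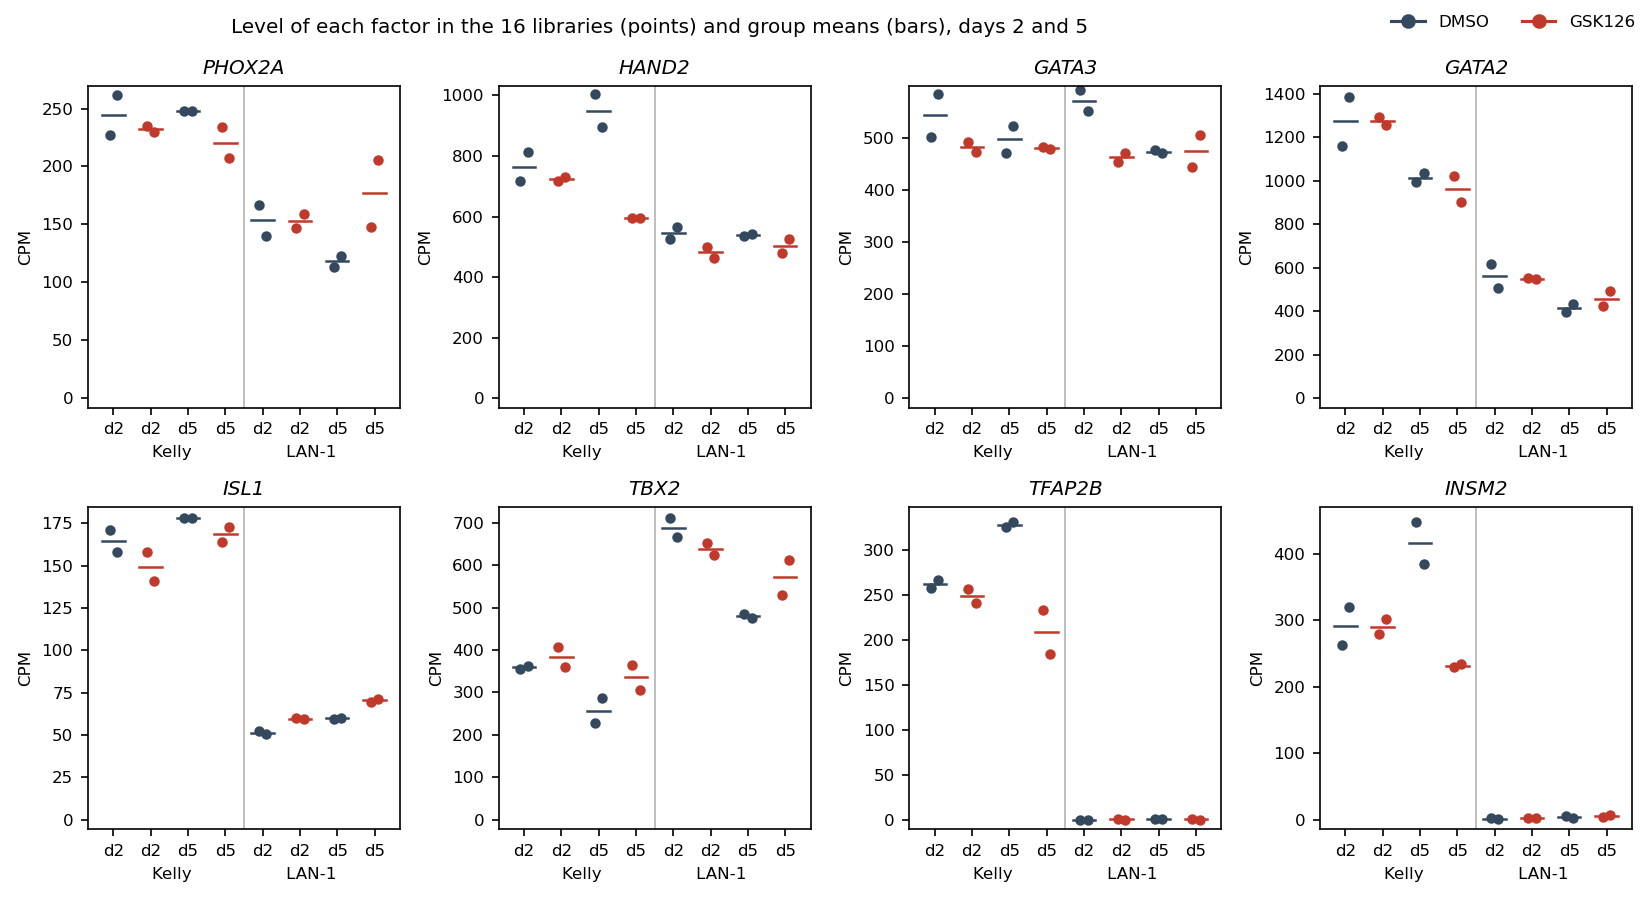
Level of each factor in CPM (linear axis from 0) in each of the 16 libraries, as points, with the mean of each group as a bar. Kelly is left of the grey line and LAN-1 right, DMSO is dark blue and GSK126 red. TFAP2B and INSM2 lie near 0 in LAN-1. In Kelly at day 5 both GSK126 points of HAND2, TFAP2B and INSM2 lie below both DMSO points. The same holds for PHOX2A and ISL1, which were not called.

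Per kilobase of exon the order of the factors differed between lines. In Kelly with DMSO at day 2, GATA2 was highest with 259 ± 32.5 RPKM, CPM per kb of exon. It was followed by HAND2 (212 ± 19.3), GATA3 (160 ± 17.4), PHOX2A (137 ± 13.9) and INSM2 (101 ± 14.1), and no neighbouring libraries in this order overlapped. TBX2 (59.0 ± 0.937) and ISL1 (58.4 ± 3.17) overlapped, and TFAP2B was lowest at 42.7 ± 0.993. At day 5 HAND2 (264 ± 21.4) stood above GATA2 (206 ± 5.59). GATA3 (146 ± 10.8), INSM2 (144 ± 15.0) and PHOX2A (139 ± 0.173) could not be ordered beyond their spread, and TBX2 (42.3 ± 6.80) was last.

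In LAN-1 with DMSO at day 2, GATA3 led with 168 ± 8.38 RPKM, above HAND2 (152 ± 7.64). GATA2 (114 ± 15.7) and TBX2 (113 ± 5.40) overlapped, and PHOX2A (86.1 ± 10.9) and ISL1 (18.3 ± 0.388) followed. With the length of the longest transcript in place of all exons, HAND2 (197) stood above GATA3 (185), so their order at day 2 depends on the length used. At day 5 HAND2 (150 ± 0.979) stood above GATA3 (139 ± 1.24) without overlap. It also did so with the longest transcript (194 against 153). The ratio of GATA2 to GATA3 per kilobase was 1.30 to 1.84 in the 8 Kelly libraries and 0.577 to 0.842 in the 8 LAN-1 libraries, with no overlap.

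**Figure D2:**
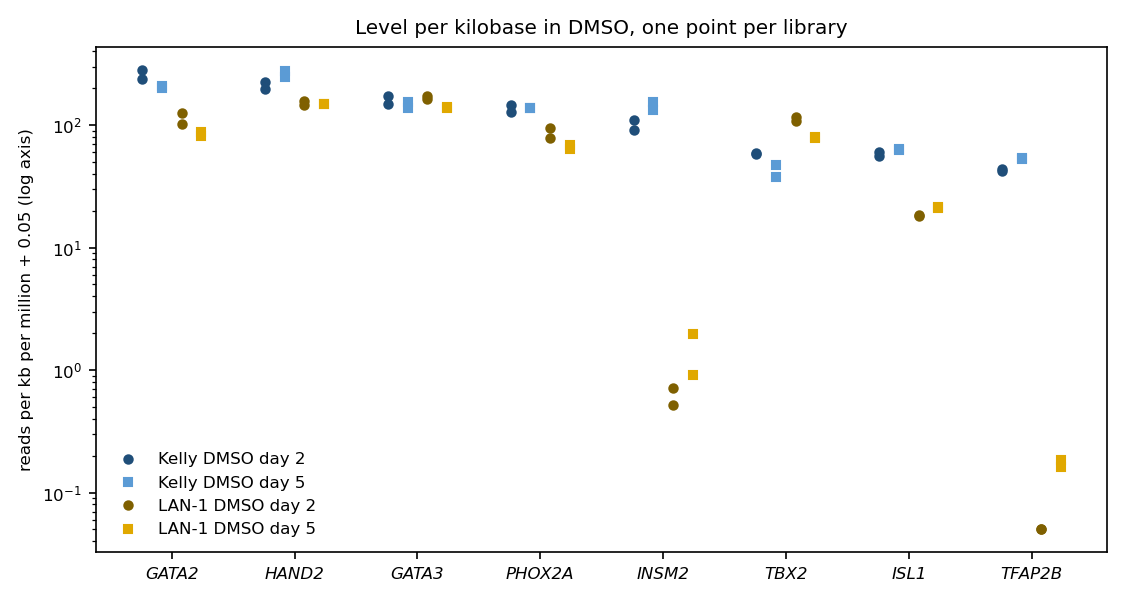
RPKM plus 0.05 on a log axis, for the DMSO libraries, 1 point per library. Circles are day 2 and squares day 5, with Kelly in blue and LAN-1 in yellow and brown. GATA3 lies at a like height in both lines, while INSM2 and TFAP2B are lower in LAN-1 by the ratios given in the text.

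Between lines, LAN-1 was compared with Kelly in DMSO over both days. This contrast called 67.7% of all genes (33.5% higher and 34.2% lower in LAN-1), so 7 of 8 members called does not set them apart. ISL1 (-1.62 ± 0.10, adjusted p = 1.10e-30), GATA2 (-1.24 ± 0.06, adjusted p = 2.42e-37), PHOX2A (-0.88 ± 0.08, adjusted p = 1.27e-17) and HAND2 (-0.65 ± 0.06, adjusted p = 2.83e-18) were lower in LAN-1, besides TFAP2B and INSM2. TBX2 was the single member higher there, by 0.91 ± 0.07 (adjusted p = 1.76e-24). GATA3 did not pass, and its interval reached from -0.13 to 0.12. Each of the 7 calls held in all 16 fits that left out 1 library.

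Of 32 listed target and effector genes of the adrenergic state, 28 were lower and 3 higher in LAN-1, with a median of -2.43 against -0.02 over all genes. The contrast called 34.2% of all genes lower and 33.5% higher in LAN-1. Of 28 tested other adrenergic factors, 9 were higher and 13 lower, with a median of -0.19.

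After 2 days of GSK126 no member was called in either line by edgeR or by DESeq2. At an unadjusted p under 0.05, 1 of 8 members was lower in Kelly and 2 of 8 in LAN-1. All genes gave 0.177% called in Kelly and 0.152% in LAN-1. The 8 estimates in Kelly lay between -0.18 (GATA3) and 0.10 (TBX2). In LAN-1, GATA3 gave -0.30 (interval -0.48 to -0.13, adjusted p = 0.232). It had 592 and 551 CPM in DMSO and 454 and 471 CPM in GSK126, with no overlap. GATA3 passed the test when only the groups compared were fitted (adjusted p = 0.0366) and with GC corrected (adjusted p = 0.0410), but not with DESeq2 (adjusted p = 1).

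After 5 days of GSK126 in Kelly, HAND2, TFAP2B and INSM2 were lower than with DMSO and TBX2 was higher. This made 4 of 8 members called, against 4.90% of all genes (3.30% higher and 1.60% lower). The median over the members was -0.12, against 0.01 over all genes. The members were chosen with earlier results of these data known, so these shares do not test them as a set.

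HAND2 had 1004 and 895 CPM in DMSO and 596 and 596 CPM in GSK126. Both treated libraries lay below both controls. The mean went from 950 ± 77.2 to 596 ± 0.314 CPM, a change of -0.67 ± 0.09 (adjusted p = 7.79e-10). INSM2 had 447 and 385 CPM in DMSO and 229 and 234 CPM in GSK126, again with no overlap. Its change was -0.84 ± 0.10 (adjusted p = 1.68e-10), from 416 ± 43.5 to 232 ± 2.91 CPM. TFAP2B had 326 and 331 CPM in DMSO and 234 and 185 CPM in GSK126. The treated duplicates of TFAP2B differed from each other more than the controls did, yet both were lower than either control. Its change was -0.65 ± 0.11 (adjusted p = 1.74e-06), from 329 ± 3.61 to 209 ± 34.3 CPM. These 3 calls held without any 1 of the 4 libraries compared, the highest adjusted p being 0.0141 for TFAP2B, and with DESeq2, the highest being 0.00264, also for TFAP2B.

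TBX2 had 228 and 287 CPM in DMSO and 365 and 307 CPM in GSK126. The groups did not overlap, but the lower treated library lay near the higher control. From day 2 to day 5 TBX2 went from 359 ± 5.70 to 257 ± 41.3 CPM in DMSO. In GSK126 it went from 383 ± 34.5 to 336 ± 41.2 CPM (-0.19, adjusted p = 0.372, not called). Against DMSO at day 5 its change was 0.38 ± 0.10 (adjusted p = 0.0129). The call was lost without DMSO replicate 1 (0.22, adjusted p = 0.416), without GSK126 replicate 1 (0.25, adjusted p = 0.358) and with DESeq2 (adjusted p = 0.114).

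The other 4 members did not pass in Kelly at day 5. GATA2 gave -0.07 (95% interval -0.24 to 0.10), GATA3 -0.05 (-0.23 to 0.13), ISL1 -0.08 (-0.31 to 0.15) and PHOX2A -0.17 (-0.39 to 0.05). The lower ends of these intervals all stop short of the estimates for HAND2, INSM2 and TFAP2B. The differences between members were not tested. Both GSK126 libraries of ISL1 (164 and 173 CPM) and of PHOX2A (234 and 207 CPM) also lay below both DMSO libraries. A lack of overlap between duplicates was therefore not particular to the called members. How often it occurs over all genes was not counted.

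**Figure D3:**
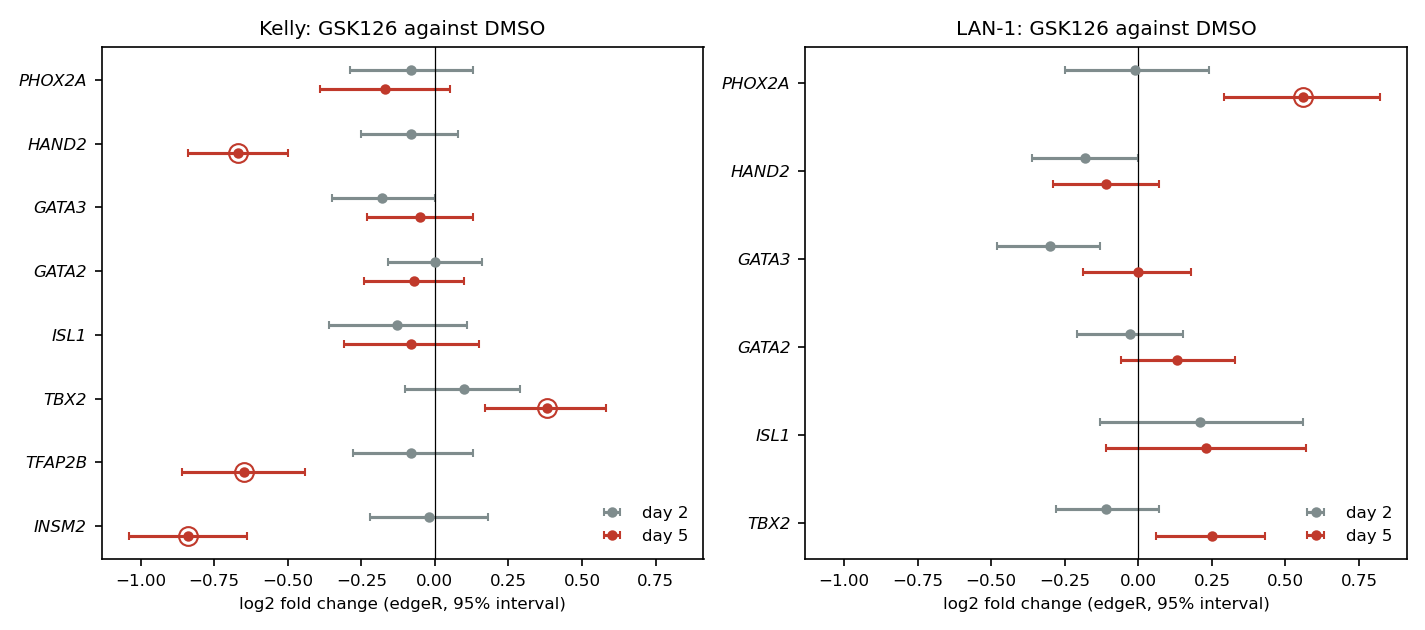
Log2 fold change of GSK126 against DMSO by edgeR with its 95% interval, per factor, for day 2 (grey) and day 5 (red), in Kelly (left) and LAN-1 (right). Rings mark an adjusted p under 0.05 and the line marks no change. TFAP2B and INSM2 are left out of the LAN-1 panel because they had almost no reads there. In Kelly the rings lie at -0.67, -0.65 and -0.84 for HAND2, TFAP2B and INSM2 and at 0.38 for TBX2, and in LAN-1 at 0.56 for PHOX2A.

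Whether these changes differed from those of day 2 was tested as a difference of effects. In Kelly 3 members were called, all lower at day 5, where 0.379% of all genes were called (0.202% higher and 0.177% lower). The difference was -0.82 ± 0.14 for INSM2 (adjusted p = 8.99e-05), -0.59 ± 0.12 for HAND2 (adjusted p = 0.00194) and -0.57 ± 0.15 for TFAP2B (adjusted p = 0.0474). INSM2 was called in all 16 fits without 1 library. HAND2 lost its call without Kelly DMSO day 5 replicate 1 (-0.50, adjusted p = 0.0845). TFAP2B lost its call in 11 of 16 such fits, with estimates from -0.62 to -0.41, with DESeq2 (adjusted p = 0.780) and with a replicate block (adjusted p = 0.0875). Its call was also lost with upper-quartile factors (adjusted p = 0.0546) and with library totals only (adjusted p = 0.0581). In LAN-1 no member was called by either tool, against 0.539% of all genes, with 3 members at an unadjusted p under 0.05 in edgeR. Without LAN-1 GSK126 day 5 replicate 1, PHOX2A (0.82, adjusted p = 0.00604) and TBX2 (0.46, adjusted p = 0.0345) were called higher at day 5.

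The controls that enter this contrast also changed with time in culture. From day 2 to day 5 in DMSO, 3 members were called in Kelly and 2 in LAN-1, and each contrast called 0.438% of all genes (in Kelly 0.236% higher and 0.202% lower, in LAN-1 0.118% and 0.320%). INSM2 rose in Kelly from 292 ± 40.8 to 416 ± 43.5 CPM (0.50 ± 0.10, adjusted p = 0.00126). HAND2 went from 765 ± 69.6 to 950 ± 77.2 CPM (0.31, adjusted p = 0.0650) and TFAP2B from 263 ± 6.11 to 329 ± 3.61 CPM (0.32, adjusted p = 0.187), neither called. With GC corrected both passed, HAND2 at 0.28 (adjusted p = 0.0113) and TFAP2B at 0.31 (adjusted p = 0.0463). HAND2 also passed with a minimum count of 30 (adjusted p = 0.0442), without DMSO day 2 replicate 2 (0.41, adjusted p = 0.0287), and without either LAN-1 GSK126 day 5 library (adjusted p = 0.0125 and 0.0116). The INSM2 call was lost without DMSO day 5 replicate 1 (0.38, adjusted p = 0.398) or DMSO day 2 replicate 1 (0.37, adjusted p = 0.151), and with DESeq2 (adjusted p = 0.0947).

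Under GSK126 the estimates from day 2 to day 5 were negative for these genes. HAND2 went from 724 ± 8.40 to 596 ± 0.314 CPM in Kelly (-0.28 ± 0.09, adjusted p = 0.0484), a call that was lost in each of the 4 fits without 1 of the libraries compared (adjusted p up to 0.251). It was also lost with DESeq2 (adjusted p = 0.260), a replicate block (0.0684), GC corrected (0.0796), upper-quartile factors (0.0650), library totals (0.0514) and a minimum count of 30 (0.0561), and without Kelly DMSO day 5 replicate 2 or any of the 4 LAN-1 DMSO libraries. INSM2 went from 290 ± 15.5 to 232 ± 2.91 CPM (-0.32, adjusted p = 0.0754) and TFAP2B from 249 ± 11.2 to 209 ± 34.3 CPM (-0.25, adjusted p = 0.248), neither called. INSM2 passed when only the groups compared were fitted (adjusted p = 0.00870), with GC corrected (adjusted p = 0.0486) and without Kelly DMSO day 2 replicate 1 (adjusted p = 0.0399) or either LAN-1 GSK126 day 5 library (adjusted p = 0.0402 and 0.0453). Kelly had 2 members called in this contrast, HAND2 and GATA2, against 2.94% of all genes (0.944% lower), and LAN-1 none, against 1.22% (0.346% lower), with 1 member at an unadjusted p under 0.05 in edgeR and 0 called by DESeq2. With GC corrected, GATA2 (-0.41, adjusted p = 2.66e-04, against -0.28 uncorrected) and TBX2 (-0.30, adjusted p = 0.0149, against -0.17) were called lower in LAN-1. The day 5 comparison and both of these time comparisons share libraries, so they are not independent.

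GATA2 and TBX2 were lower at day 5 than at day 2 in the DMSO libraries of both lines. TBX2 in LAN-1 had 712 and 666 CPM at day 2 and 485 and 475 CPM at day 5 (-0.52 ± 0.09, adjusted p = 6.19e-05), a call kept in all 4 fits without 1 of the libraries compared. In Kelly TBX2 fell from 359 ± 5.70 to 257 ± 41.3 CPM (-0.47 ± 0.10, adjusted p = 0.00518), a call lost without DMSO day 5 replicate 1 (-0.33, adjusted p = 0.620) or DMSO day 2 replicate 2 (-0.45, adjusted p = 0.0688). GATA2 fell in LAN-1 from 562 ± 77.1 to 416 ± 25.7 CPM (-0.44 ± 0.09, adjusted p = 0.00397). Its call was lost without DMSO day 2 replicate 1 (-0.29, adjusted p = 0.741) or DMSO day 5 replicate 1 (-0.38, adjusted p = 0.394), and with DESeq2 (adjusted p = 0.0682).

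In Kelly, GATA2 fell from 1274 ± 160 to 1015 ± 27.5 CPM in DMSO (-0.33 ± 0.08, adjusted p = 0.0353) and from 1275 ± 29.1 to 963 ± 85.1 CPM in GSK126 (-0.40 ± 0.08, adjusted p = 7.46e-04). The DMSO call was lost without DMSO day 2 replicate 2 (-0.19, adjusted p = 0.515), DMSO day 5 replicate 1 (-0.31, adjusted p = 0.501) or DMSO day 5 replicate 2 (-0.36, adjusted p = 0.137). It was also lost with DESeq2 (adjusted p = 0.196), with a replicate block (adjusted p = 0.0753), when only the groups compared were fitted (adjusted p = 0.109) and without either LAN-1 DMSO day 5 library (adjusted p = 0.0567 and 0.0613). The GSK126 call was lost without GSK126 day 5 replicate 2 (-0.32, adjusted p = 0.134). At neither day did GATA2 pass between GSK126 and DMSO.

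In LAN-1 after 5 days of GSK126, PHOX2A was the single member called, against 3.66% of all genes (2.45% higher). It had 113 and 123 CPM in DMSO and 148 and 206 CPM in GSK126. The groups did not overlap, but the treated libraries lay further apart from each other than the lower of them lay from the controls. In DMSO PHOX2A had gone from 154 ± 19.5 CPM at day 2 to 118 ± 7.07 CPM at day 5 (-0.39, adjusted p = 0.253). In GSK126 it went from 153 ± 8.70 to 177 ± 40.9 CPM (0.17, adjusted p = 0.611). Neither of these time changes was called. At day 5 the mean was 118 ± 7.07 CPM with DMSO and 177 ± 40.9 CPM with GSK126 (0.56 ± 0.13, adjusted p = 0.00479). The call was lost without GSK126 replicate 2 (0.33, adjusted p = 0.360) or DMSO replicate 1 (0.49, adjusted p = 0.147) and with GC corrected (0.31, adjusted p = 0.151). The PHOX2A transcript has 66.5% GC, the highest of the 8, and these treated duplicates are the pair whose ratio followed GC most. The part of GC content in the PHOX2A change was not tested.

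TBX2 gave 0.25 (0.06 to 0.43, adjusted p = 0.132) in LAN-1 at day 5, HAND2 -0.11 (-0.29 to 0.07) and ISL1 0.23 (-0.11 to 0.57). The TBX2 estimate was 0.05 with GC corrected (adjusted p = 0.840), and it was called without GSK126 replicate 1 (0.35, adjusted p = 0.0230). With GC corrected HAND2 gave -0.27 (adjusted p = 0.0356). INSM2 had 12 counts with GSK126 and 11 with DMSO, a ratio of 1.22 (0.495 to 3.06), and TFAP2B had 1 and 2 counts, so neither could show a change of the size seen in Kelly.

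The difference of the day 5 effect between lines was called for 2 members, against 1.85% of all genes (0.919% with the higher and 0.936% with the lower value in LAN-1). HAND2 differed by 0.56 ± 0.12 (adjusted p = 0.00293), with -0.67 in Kelly and -0.11 in LAN-1, and kept its call in all 16 fits without 1 library and with DESeq2 (adjusted p = 0.00707). With GC corrected the HAND2 difference was smaller, at 0.39 (adjusted p = 0.0207). PHOX2A differed by 0.72 ± 0.17 (adjusted p = 0.00624), with -0.17 in Kelly and 0.56 in LAN-1. Its call was lost without LAN-1 GSK126 day 5 replicate 2 (0.50, adjusted p = 0.199), LAN-1 DMSO day 5 replicate 1 (0.66, adjusted p = 0.103) or Kelly GSK126 day 5 replicate 2 (0.66, adjusted p = 0.0580), with DESeq2 (adjusted p = 0.0560) and with GC corrected (0.47, adjusted p = 0.0804). At day 2 no member was called for a difference between lines by edgeR or DESeq2, against 0.00843% of all genes, and 0 had an unadjusted p under 0.05.

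Averaged over both lines and days, HAND2 was lower with GSK126 (-0.26 ± 0.04, adjusted p = 5.57e-06) and TBX2 higher (0.15 ± 0.05, adjusted p = 0.0331), 2 of 8 members against 6.47% of all genes (4.32% higher and 2.16% lower). TBX2 lost its call in 8 of 16 fits without 1 library, with estimates from 0.12 to 0.15, with DESeq2 (adjusted p = 0.168), with a replicate block (adjusted p = 0.0518) and with GC corrected (0.08, adjusted p = 0.252). GATA3 gave -0.13 (adjusted p = 0.0569) and was called lower with GC corrected (-0.18, adjusted p = 2.71e-04), and without Kelly DMSO day 2 replicate 1 (adjusted p = 0.0175), Kelly DMSO day 5 replicate 1 (adjusted p = 0.0447) or LAN-1 GSK126 day 5 replicate 2 (adjusted p = 0.0118). The average hides the difference between lines that was called for HAND2.

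The other genes of the adrenergic programme were taken from lists that were also chosen with earlier results of these data known. In Kelly at day 5, of 28 tested other adrenergic factors 3 rose and 4 fell, with a median of -0.06. Of all genes, 3.30% were called higher and 1.60% lower there, with a median of 0.01. SOX4, a neural progenitor factor, rose by 0.68 ± 0.11 (161 to 257 CPM, adjusted p = 1.81e-06). HAND1, the relative of HAND2, rose by 0.38 ± 0.10 (290 to 378 CPM, adjusted p = 0.00845) where HAND2 fell, but lost its call in 2 of 4 fits without 1 library (adjusted p up to 0.230) and with DESeq2 (adjusted p = 0.126). MYCN, the oncogene of the bHLH-zipper class, fell by 0.39 on the log2 scale (2494 to 1901 CPM, adjusted p = 1.81e-04). In LAN-1 at day 5, 3 of 28 rose, against 2.45% of all genes, with a median of 0.04 against 0.00 over all genes. None was called lower by edgeR or DESeq2 (3 at an unadjusted p under 0.05, against 1.21% of all genes called lower). HAND1 rose by 0.70 ± 0.13 (108 to 176 CPM, adjusted p = 1.62e-04), a call lost without DMSO replicate 1 (adjusted p = 0.0894), and ZFHX3, a large homeodomain and zinc-finger factor, by 0.77 ± 0.11 (188 to 321 CPM, adjusted p = 2.80e-07). MYCN gave 0.14 there (adjusted p = 0.362).

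Among 32 adrenergic target genes in Kelly at day 5, 5 rose and 7 fell, against 3.30% and 1.60% of all genes. Their median was -0.05, against 0.01 over all genes. DBH, which converts dopamine to noradrenaline, went from 820 ± 4.09 to 329 ± 28.0 CPM (-1.31 ± 0.09, adjusted p = 2.67e-23). TH, tyrosine hydroxylase, which starts the catecholamine pathway, went from 274 ± 24.3 to 132 ± 10.1 CPM (-1.04 ± 0.12, adjusted p = 8.26e-12), and DLK1, a membrane protein of chromaffin cells, from 1434 ± 20.2 to 705 ± 41.8 CPM (-1.02 ± 0.08, adjusted p = 1.27e-19). RET, the receptor tyrosine kinase for GDNF-family ligands, moved the other way, from 91.3 ± 0.879 to 218 ± 20.3 CPM (1.25 ± 0.12, adjusted p = 1.24e-14). In LAN-1 at day 5, 8 of 32 rose, against 2.45% of all genes, with a median of 0.23 against 0.00 over all genes. None was called lower by either tool (1 at an unadjusted p under 0.05), against 1.21% of all genes. RET rose there too, from 84.0 ± 7.61 to 152 ± 2.08 CPM (0.85 ± 0.14, adjusted p = 5.89e-06), whereas DBH and TH had at most 3.53 CPM in the means of that comparison.

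Of 22 tested mesenchymal factors, 5 rose and 1 fell in Kelly at day 5, with a median of 0.26 against 0.01 over all genes. Of all genes, 3.30% were called higher and 1.60% lower in Kelly, and 2.45% higher and 1.21% lower in LAN-1. NOTCH2, a Notch receptor, went from 1.05 ± 0.624 to 53.3 ± 5.12 CPM (adjusted p = 1.73e-21). PRRX1, a homeodomain factor of mesenchyme, went from 3.91 ± 1.32 to 25.6 ± 4.05 CPM (2.65 ± 0.40, adjusted p = 3.22e-07), and TEAD1, the DNA-binding partner of YAP, from 360 to 470 CPM (0.39 ± 0.09, adjusted p = 0.00295). The TEAD1 call was lost in 2 of 4 fits without 1 library (adjusted p up to 0.115). ZNF217 was the gene that fell. In LAN-1 1 of 22 rose, ID1, a target of BMP signalling (0.65 ± 0.16, adjusted p = 0.00608), and its call was lost in 2 of 4 such fits (adjusted p up to 0.233).

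Beside the fall of HAND2, TFAP2B and INSM2 in Kelly, the summed level of 7 fibroblast and mesenchymal markers was 191 to 221 CPM in the DMSO libraries of day 5 and 468 to 475 CPM in the GSK126 libraries. Of the 6 tested, 4 rose (COL3A1, PDGFRA, VIM and COL1A1), against 3.30% of all genes, and none of the 7 was at 0 in Kelly. The sympathoadrenal markers summed to 5266 to 5296 CPM and 3855 to 3918 CPM in the same libraries. In LAN-1 at day 5 the fibroblast and mesenchymal sum was 383 to 434 CPM in DMSO and 506 to 508 CPM in GSK126. There 2 of the 6 tested rose (PDGFRA and COL1A1), against 2.45% of all genes. The part of these markers in the members' changes was not tested. In bulk RNA fewer cells of a type and less RNA per cell cannot be told apart.

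**Figure D4:**
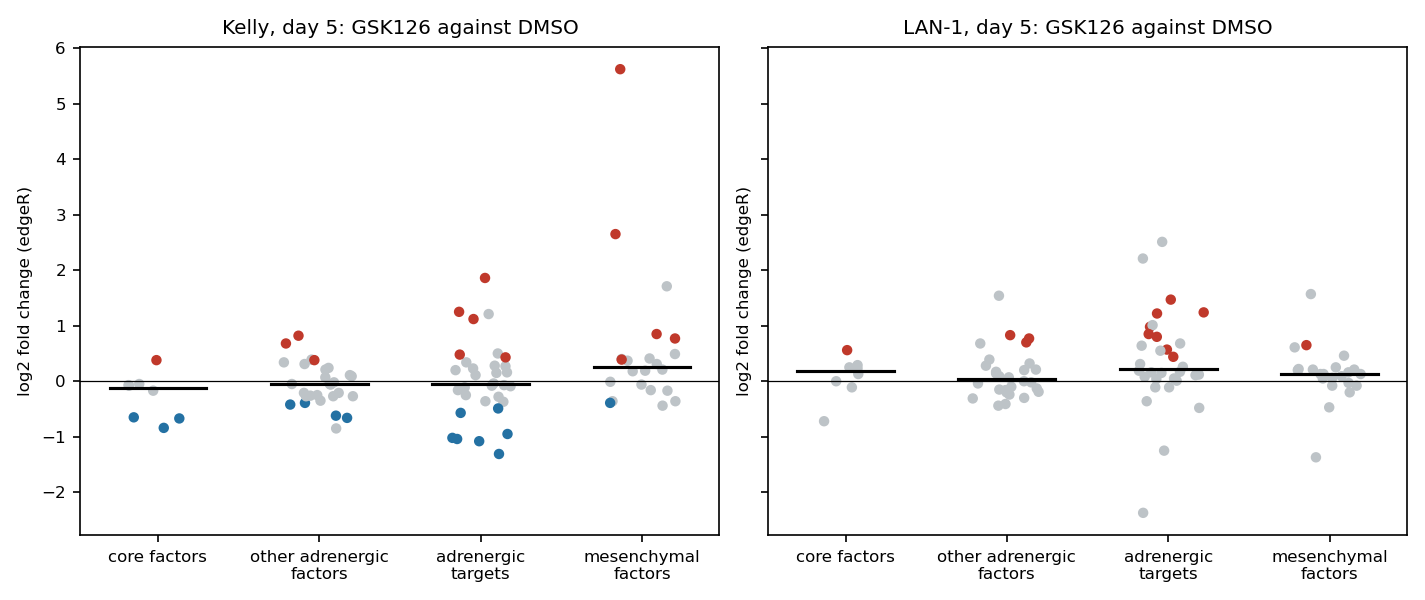
Log2 fold change of GSK126 against DMSO at day 5 by edgeR, 1 point per tested gene, for the core factors and 3 gene lists, in Kelly (left) and LAN-1 (right). Red and blue points are genes called higher and lower, grey points were not called, and black bars are medians. TFAP2B and INSM2 have almost no reads in LAN-1, so their points there carry little weight. In Kelly called genes lie on both sides for the core factors and in each list, while in LAN-1 all called points lie above 0.

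Among 8 tested relatives of the members in the same gene families, 1 rose and 1 fell in Kelly at day 5, and 2 rose in LAN-1. Of all genes, 3.30% were called higher and 1.60% lower in Kelly, and 2.45% higher in LAN-1. TBX20, a T-box relative of TBX2, rose in LAN-1 by 0.74 ± 0.16 (69.4 to 117 CPM, adjusted p = 8.74e-04) and gave 0.52 in Kelly (adjusted p = 0.0512). The other was HAND1. None of 11 genes of the Polycomb machinery was called at day 5 in either line by edgeR or DESeq2. The share over all genes was 4.90% in Kelly and 3.66% in LAN-1. At an unadjusted p under 0.05 in edgeR, 5 of the 11 were lower in Kelly and 2 in LAN-1. EZH2 itself gave -0.28 in Kelly (219 to 179 CPM, adjusted p = 0.149) and -0.31 in LAN-1 (131 to 104 CPM, adjusted p = 0.211). Averaged over both lines and days, 3 of the 11 were lower, against 2.16% of all genes. They were EZH2 (-0.27 ± 0.06, adjusted p = 0.00155), RBBP7 (-0.22 ± 0.06, adjusted p = 0.00853) and PHF19 (-0.32 ± 0.09, adjusted p = 0.0159). EZH2 kept its call in all 16 fits without 1 library and with DESeq2 (adjusted p = 0.0221). RBBP7 and PHF19 lost theirs with DESeq2 (adjusted p = 0.0692 and 0.155). RBBP7 also lost it without LAN-1 GSK126 day 2 replicate 2, and PHF19 without LAN-1 DMSO day 5 replicate 1 or LAN-1 GSK126 day 2 replicate 1 (adjusted p up to 0.0888).

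Several members overlap or neighbour other transcripts, and the strand setting of the counting was not given in the sources used here. HAND2-AS1 shares 867 exonic bases with HAND2 on the opposite strand, and GATA2-AS1 shares 78 with GATA2. HAND2-AS1 had 65.8 CPM with DMSO and 64.6 CPM with GSK126 in Kelly at day 5 (-0.01, adjusted p = 0.990), while HAND2 fell. GATA2-AS1, GATA3-AS1, TBX2-AS1, RALGAPA1, BCAS3 and ARAP1 were called in neither line at day 5. CLPB, a mitochondrial chaperone gene 39830 bases from PHOX2A, rose with PHOX2A in LAN-1 at day 5, from 85.9 ± 9.79 to 125 ± 13.6 CPM (0.56 ± 0.14, adjusted p = 0.00873). Its call was lost in 2 of 4 fits without 1 library (adjusted p up to 0.260).

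The members did not vary as 1 block across libraries. Within the 8 Kelly libraries, the log2 levels of HAND2 correlated with those of INSM2 at r = 0.98 and of TFAP2B at 0.91. Within the 8 LAN-1 libraries, where TFAP2B and INSM2 were near 0, GATA2 and TBX2 had r = 0.92, against 0.65 in Kelly. HAND2 and TBX2 had r = -0.62 in Kelly. These correlations describe libraries that share treatment and time, and carry no test.

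For each member, the 3 genes most like it were sought among 8174 genes over the 16 libraries, after subtracting the mean of each line. GATA2 was most like TBX3 (r = 0.95), GGA2 (0.90) and PABPC4 (0.87). TBX2 was most like DOK4 (0.93), ZFPM1 (0.90) and ID3 (0.89), and PHOX2A most like SLC25A39 (0.93), NCSTN (0.90) and BCAS3 (0.88). HAND2 was most like RIMS3 (0.91), SAP30BP (0.85) and WHSC1 (0.85), and INSM2 most like SLC6A6 (0.90), DOCK10 (0.85) and IGFBPL1 (0.84). TFAP2B was most like FAM107B (0.89), SERINC5 (0.84) and TXNRD1 (0.78), ISL1 most like TLE4 (0.89), GOT1 (0.85) and ADAMTS9 (0.84), and GATA3 most like GTF3C1 (0.84), PRPF8 (0.82) and CSNK1D (0.82). No member was among the 3 genes most like another. TFAP2B and INSM2 had almost no reads in LAN-1, so counting noise there limits where these 2 members can rank. HAND2 and INSM2 had r = 0.46 over both lines against 0.98 in Kelly, and HAND2 and TFAP2B 0.52 against 0.91.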

How the data were processed

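RNA of 16 libraries was measured by sequencing. The authors deposited whole-read counts per gene symbol without normalization; the tools named in the submitters' processing notes are TopHat2, featureCounts and FastQC, without versions, and the build is GRCh37 (hg19). Samples were grouped by the labels. The tests used edgeR 4.0.16 (R 4.3.3), with filterByExpr at a minimum count of 10, TMM factors (0.9774 to 1.026), a robust quasi-likelihood fit with 8 group means (8 residual degrees of freedom, common biological coefficient of variation 5.31%) and Benjamini-Hochberg adjustment over 11863 genes. On simulated data for Kelly at day 5, 77% of 200 genes changed 2-fold were recovered among 11712, with 8 false calls. The changed genes were drawn from the better-counted ones. All genes were given 1 common spread, without the GC trends seen between duplicates, so real data may do worse. The pass mark for recovery was lowered after this result was seen. DESeq2 1.42.0, other scalings and filters, a replicate block, leaving out each library and a GC correction added after the data were seen were the alternatives. Of the symbols, 21873 matched the annotation directly, 1441 by synonym and 2386 not. Named genes were all members, the 3 genes most like each, all tested neighbours, EZH2, MYCN and, from each list, up to 4 called at day 5 with the smallest adjusted p; results for a few genes that this rule selects are not reported here. Other genes named beside a small count were chosen after their values were seen. The members and lists were chosen with earlier results of these data known. Promoter windows came from RefSeq.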

Additional observations from a re-analysis of the deposited data

Results flagged for a closer look

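The members listed here had a GSK126 effect that differed between lines or between days by the interaction test in edgeR. Between lines at day 5, PHOX2A differed by 0.72 (LAN-1 minus Kelly, adjusted p = 0.00624) and HAND2 by 0.56 (adjusted p = 0.00293). Between days in Kelly (day 5 minus day 2), HAND2 differed by -0.59 (adjusted p = 0.00194), TFAP2B by -0.57 (adjusted p = 0.0474) and INSM2 by -0.82 (adjusted p = 8.99e-05). The HAND2 difference between lines and the INSM2 difference between days kept their calls in all 16 fits without 1 library, and the other 3 did not.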

How the results depend on the processing

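The falls of HAND2, TFAP2B and INSM2 with GSK126 in Kelly at day 5 kept their direction and their call under every alternative run, as did the 7 calls between the lines. Time means day 5 against day 2, line difference and day difference mean differences of the GSK126 effect, and the value without the alternative is given after "from". The causes of the changes were not tested. Changes in these counts that were small in proportion are not listed. With DESeq2, genes called numbered 3 for GSK126 in Kelly at day 2 (from 21), 163 for GSK126 in Kelly at day 5 (from 581), 2 for GSK126 in LAN-1 at day 2 (from 18), 154 for GSK126 in LAN-1 at day 5 (from 434), 289 for the mean GSK126 effect (from 768), 15 for time in DMSO in Kelly (from 52), 22 for time in DMSO in LAN-1 (from 52), 68 for time in GSK126 in Kelly (from 349), 64 for time in GSK126 in LAN-1 (from 145), 0 for the line difference at day 2 (from 1), 73 for the line difference at day 5 (from 220), 15 for the day difference in Kelly (from 45) and 28 for the day difference in LAN-1 (from 64), and members called numbered 1 for the mean GSK126 effect (from 2), 1 for time in DMSO in Kelly (from 3), 1 for time in DMSO in LAN-1 (from 2), 1 for time in GSK126 in Kelly (from 2) and 1 for the line difference at day 5 (from 2). Under DESeq2, uncalled estimates changed sign for GATA3 (0.01, GSK126 in LAN-1 at day 5). With upper-quartile factors, members called numbered 1 for time in GSK126 in Kelly (from 2), and uncalled estimates changed sign for GATA2 (0.01, GSK126 in Kelly at day 2), GATA3 (0.00, GSK126 in LAN-1 at day 5) and GATA3 (0.01, time in GSK126 in Kelly). With library totals only, members called numbered 1 for time in GSK126 in Kelly (from 2), and uncalled estimates changed sign for GATA2 (0.02, GSK126 in Kelly at day 2), INSM2 (0.00, GSK126 in Kelly at day 2), PHOX2A (0.01, GSK126 in LAN-1 at day 2), GATA3 (0.01, GSK126 in LAN-1 at day 5), INSM2 (0.01, the mean GSK126 effect) and GATA3 (0.01, time in GSK126 in Kelly). With no filter, genes called numbered 2 for the line difference at day 2 (from 1), and uncalled estimates changed sign for PHOX2A (0.00, GSK126 in LAN-1 at day 2), GATA3 (0.00, GSK126 in LAN-1 at day 5) and GATA2 (-0.00, the mean GSK126 effect). With a minimum count of 30, members called numbered 1 for time in GSK126 in Kelly (from 2), and uncalled estimates changed sign for GATA2 (0.02, GSK126 in Kelly at day 2), PHOX2A (0.00, GSK126 in LAN-1 at day 2), GATA3 (0.01, GSK126 in LAN-1 at day 5) and GATA3 (0.01, time in GSK126 in Kelly). With only the groups compared, genes called numbered 39 for GSK126 in LAN-1 at day 2 (from 18), 261 for GSK126 in LAN-1 at day 5 (from 434), 81 for time in DMSO in LAN-1 (from 52), 554 for time in GSK126 in Kelly (from 349), 80 for time in GSK126 in LAN-1 (from 145) and 2 for the line difference at day 2 (from 1), and members called numbered 1 for GSK126 in LAN-1 at day 2 (from 0). Under that setting, uncalled estimates changed sign for GATA3 (0.01, GSK126 in LAN-1 at day 5). The replicate numbers gave no sign of pairing the libraries: deviations of same-numbered libraries correlated at -0.082 to 0.062 between GSK126 and DMSO within a line and day. The GC trends of single libraries also enter these correlations, so they cannot decide whether libraries were paired. Nothing in the labels ties the numbers to a shared culture. With the replicate block, genes called numbered 8 for GSK126 in Kelly at day 2 (from 21), and members called numbered 1 for the mean GSK126 effect (from 2) and 1 for time in GSK126 in Kelly (from 2). Under that setting, uncalled estimates changed sign for GATA2 (0.00, GSK126 in Kelly at day 2) and TFAP2B (-0.03, time in GSK126 in LAN-1). With GC corrected, genes called numbered 882 for GSK126 in Kelly at day 5 (from 581), 32 for GSK126 in LAN-1 at day 2 (from 18) and 97 for time in DMSO in Kelly (from 52), and members called numbered 1 for GSK126 in LAN-1 at day 2 (from 0), 5 for time in DMSO in Kelly (from 3), 2 for time in GSK126 in LAN-1 (from 0) and 1 for the line difference at day 5 (from 2). Under GC correction, uncalled estimates changed sign for TBX2 (-0.03, GSK126 in Kelly at day 2), GATA2 (-0.05, GSK126 in LAN-1 at day 5), PHOX2A (-0.03, the mean GSK126 effect), GATA2 (-0.06, the mean GSK126 effect), PHOX2A (-0.04, time in DMSO in Kelly), HAND2 (0.01, time in DMSO in LAN-1), PHOX2A (0.01, time in GSK126 in Kelly), HAND2 (-0.07, time in GSK126 in LAN-1), GATA3 (-0.04, time in GSK126 in LAN-1), GATA2 (0.06, the line difference at day 2), GATA3 (-0.02, the line difference at day 5), PHOX2A (0.05, the day difference in Kelly), GATA2 (0.03, the day difference in Kelly), HAND2 (-0.08, the day difference in LAN-1) and GATA2 (-0.01, the day difference in LAN-1). Leaving out each library in turn gave genes called of 2 to 25 for GSK126 in Kelly at day 2, 239 to 709 for GSK126 in Kelly at day 5, 3 to 26 for GSK126 in LAN-1 at day 2, 139 to 735 for GSK126 in LAN-1 at day 5, 577 to 960 for the mean GSK126 effect, 7562 to 8333 for the lines in DMSO, 10 to 84 for time in DMSO in Kelly, 21 to 67 for time in DMSO in LAN-1, 104 to 436 for time in GSK126 in Kelly, 21 to 382 for time in GSK126 in LAN-1, 0 to 2 for the line difference at day 2, 117 to 479 for the line difference at day 5, 22 to 56 for the day difference in Kelly and 24 to 223 for the day difference in LAN-1. Without LAN-1 GSK126 day 5 replicate 1, genes called reached 735 for GSK126 in LAN-1 at day 5, 479 for the line difference at day 5, 382 for time in GSK126 in LAN-1 and 223 for the day difference in LAN-1. Leaving out each library in turn gave members called of 0 for GSK126 in Kelly at day 2, 3 to 4 for GSK126 in Kelly at day 5, 0 for GSK126 in LAN-1 at day 2, 0 to 2 for GSK126 in LAN-1 at day 5, 1 to 3 for the mean GSK126 effect, 7 for the lines in DMSO, 0 to 4 for time in DMSO in Kelly, 1 to 2 for time in DMSO in LAN-1, 0 to 3 for time in GSK126 in Kelly, 0 for time in GSK126 in LAN-1, 0 for the line difference at day 2, 1 to 2 for the line difference at day 5, 1 to 3 for the day difference in Kelly and 0 to 2 for the day difference in LAN-1. Uncalled estimates that changed sign in such fits ran over PHOX2A -0.17 to 0.03 (GSK126 in Kelly at day 2), HAND2 -0.17 to 0.02 (GSK126 in Kelly at day 2), GATA2 -0.12 to 0.13 (GSK126 in Kelly at day 2), TBX2 -0.00 to 0.18 (GSK126 in Kelly at day 2), INSM2 -0.14 to 0.14 (GSK126 in Kelly at day 2), GATA3 -0.13 to 0.03 (GSK126 in Kelly at day 5), GATA2 -0.16 to 0.01 (GSK126 in Kelly at day 5), PHOX2A -0.13 to 0.13 (GSK126 in LAN-1 at day 2), GATA2 -0.17 to 0.11 (GSK126 in LAN-1 at day 2), TFAP2B 0.00 to 3.31 (GSK126 in LAN-1 at day 2), GATA3 -0.09 to 0.09 (GSK126 in LAN-1 at day 5), INSM2 -0.12 to 1.00 (GSK126 in LAN-1 at day 5), GATA2 -0.03 to 0.04 (the mean GSK126 effect), TFAP2B -0.39 to 0.47 (the mean GSK126 effect), INSM2 -0.12 to 0.16 (the mean GSK126 effect), GATA3 -0.06 to 0.06 (the lines in DMSO), PHOX2A -0.08 to 0.13 (time in DMSO in Kelly), HAND2 -0.07 to 0.03 (time in DMSO in LAN-1), PHOX2A -0.16 to 0.00 (time in GSK126 in Kelly), GATA3 -0.04 to 0.01 (time in GSK126 in Kelly), PHOX2A -0.05 to 0.43 (time in GSK126 in LAN-1), HAND2 -0.01 to 0.13 (time in GSK126 in LAN-1), GATA3 -0.06 to 0.13 (time in GSK126 in LAN-1), TFAP2B -2.42 to 2.53 (time in GSK126 in LAN-1), PHOX2A -0.05 to 0.21 (the line difference at day 2), GATA2 -0.17 to 0.12 (the line difference at day 2), GATA3 -0.04 to 0.14 (the line difference at day 5), TBX2 -0.31 to 0.04 (the line difference at day 5), TFAP2B -2.57 to 0.54 (the line difference at day 5), GATA2 -0.21 to 0.03 (the day difference in Kelly), ISL1 -0.03 to 0.12 (the day difference in Kelly), ISL1 0.00 to 0.04 (the day difference in LAN-1) and INSM2 -0.62 to 0.49 (the day difference in LAN-1). No fit of a group with 1 library left had a spread of its own, so that library was assumed to vary like the others. With 2 libraries a group, precision rests on the duplicates for the well-counted members, and no group of LAN-1 had more than 12 counts of INSM2 or 2 of TFAP2B, so their fitted values in comparisons with LAN-1 carry little weight.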
